A study of Rattus norvegicus with 8 samples.

Results

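A group of 6 genes that are induced together when oxygen is low were followed in nucleus pulposus cells of the rat, which fill the core of the intervertebral disc: Slc2a1, Hk2, Pfkfb3, Hilpda, Bnip3l and Vegfa. They were taken by gene name from a deposited table of 4226 genes; all 6 were found, each under 1 gene identifier, and all 6 were above the expression limit set for testing (2890 genes tested). The cells had undergone knockdown of their own SOD1, an enzyme that removes superoxide, and were then transfected with SOD1 in which arginine stands in place of a lysine (SOD1-K123R, 4 libraries) or with unchanged SOD1 (SOD1-WT, 4 libraries). Per the labels, the knockdown and the exposure to 10 mM lactate for 7 days were common to both groups, and the comparison is read here as one of the 2 forms of SOD1 in the presence of lactate. Sod1 itself was not analysed here, so a difference in its level cannot be told apart from the substitution. The table heads the SOD1-K123R columns L and the SOD1-WT columns Ctrl, and neither heading is explained. Should L mean lactate, with no lactate given to the SOD1-WT cells, every fold change would also hold the effect of lactate, which cannot be told apart here. Strain, age and sex of the animals, the agent used for the knockdown and whether libraries came from separate cultures are unstated in the labels, and p-values measure the spread between these libraries, which may be technical.

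As background, cells sense oxygen through the hypoxia-inducible factors (HIF), transcription factors whose alpha subunit is hydroxylated and destroyed through the VHL ubiquitin ligase while oxygen is present. When it is stabilised, the alpha subunit pairs with ARNT and binds short hypoxia response elements near genes of glucose uptake, glycolysis, mitochondrial removal, lipid storage and blood vessel growth. The disc core has no blood vessels, and its cells are known for stable HIF-1 alpha and for abundant GLUT1, the product of Slc2a1. These genes also answer to other signals, among them MYC, ATF4 and energy stress.

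The members cover several steps of that programme. SLC2A1 carries glucose into the cell, HK2 (hexokinase) traps it by phosphorylation, and PFKFB3 makes the fructose bisphosphate that activates phosphofructokinase. HILPDA is a small lipid-droplet protein that inhibits the triglyceride lipase ATGL, BNIP3L (NIX) is a receptor of the outer mitochondrial membrane that marks mitochondria for autophagy, and VEGFA is the secreted growth factor that acts on endothelial cells. In the annotation held by the table, Slc2a1, Hk2, Pfkfb3 and Vegfa belong to the KEGG HIF-1 signaling pathway and Slc2a1, Hk2 and Hilpda carry a GO term on the response to hypoxia. Bnip3l carries neither.

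A RefSeq promoter entry (GRCr8 assembly) was at hand for 5 of the 6 members, and the 250 bases before the start are considered here. The letters searched were the core of the hypoxia response element, ACGTG or GCGTG, on both strands; ACGTG is also part of the E-box CACGTG. Promoters of 4 members are shown because 3 of them hold such a core and the fourth, of a gene that also rose, does not. Capitals mark the cores, and each sequence is written 5′ to 3′ on the strand of the gene.
Slc2a1 (chr5:138002272-138002521, plus strand): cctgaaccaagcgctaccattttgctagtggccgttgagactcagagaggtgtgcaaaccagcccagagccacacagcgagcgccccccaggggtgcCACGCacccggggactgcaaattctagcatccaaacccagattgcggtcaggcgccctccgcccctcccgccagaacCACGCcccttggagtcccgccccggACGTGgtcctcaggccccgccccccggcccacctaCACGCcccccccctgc
Pfkfb3 (chr17:71944683-71944932, plus strand): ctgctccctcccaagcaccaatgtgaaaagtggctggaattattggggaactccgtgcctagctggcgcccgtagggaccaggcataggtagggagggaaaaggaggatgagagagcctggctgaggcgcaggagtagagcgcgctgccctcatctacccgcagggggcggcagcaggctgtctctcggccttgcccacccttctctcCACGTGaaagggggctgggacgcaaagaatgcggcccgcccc
Hilpda (chr4:58836213-58836462, plus strand): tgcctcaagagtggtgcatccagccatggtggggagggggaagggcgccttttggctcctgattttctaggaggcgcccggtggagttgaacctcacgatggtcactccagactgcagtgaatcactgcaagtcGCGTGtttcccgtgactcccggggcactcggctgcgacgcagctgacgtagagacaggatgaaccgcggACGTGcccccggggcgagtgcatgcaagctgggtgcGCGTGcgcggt
Vegfa (chr9:22452604-22452853, plus strand): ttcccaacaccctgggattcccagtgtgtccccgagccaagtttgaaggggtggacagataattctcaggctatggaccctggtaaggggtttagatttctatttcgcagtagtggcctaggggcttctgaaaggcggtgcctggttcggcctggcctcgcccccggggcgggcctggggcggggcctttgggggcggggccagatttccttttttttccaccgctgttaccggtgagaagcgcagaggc
Slc2a1 held 1 ACGTG, whose first base lies 51 bases before the start, and 3 GCGTG on the opposite strand. Hilpda held 1 ACGTG, beginning 47 bases before the start, and 2 GCGTG. The 2 overlapping ACGTG matches of Pfkfb3, 1 on each strand, are a single E-box, CACGTG, that begins 42 bases before the start. Neither Hk2 (chr4:116841276-116841525, minus strand) nor Vegfa at either of its 2 starts held a core in this window. The Vegfa window shown held 3 copies of the GC box GGGCGG, and Slc2a1 also held 3. A hypoxia response element of the human VEGFA gene is known farther upstream than the window reaches.

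The Pfkfb3 E-box CACGTG occurs in 5.59% and the GC box in 30.5% of all 33469 promoter windows of the same length, counted on both strands. Among genes that rose and genes that fell, a gene was counted when any of its windows held the letters. By gene, CACGTG was found for 11.1% and 8.66% and the GC box for 65% and 55.9%. A gene with several starts has more windows to search, so shares of genes are not comparable with shares of single windows. A core was present in 36.7% of all windows. Counted by gene, it was present in 59.9% of 934 genes with a promoter entry that rose in SOD1-K123R and in 56.6% of 1097 that fell. In the list of HIF target genes described below, again counted by gene, it was present for 8 of 12 that rose and 4 of 6 that fell, the same share of 66.7%.

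The 6 members were not moved in 1 direction: Slc2a1, Hk2, Pfkfb3, Hilpda and Vegfa rose in SOD1-K123R and Bnip3l fell. Values are TPM, a measure of transcript abundance that is scaled for transcript length and library size, and passing means an adjusted p under 0.05 in limma (Benjamini-Hochberg over all genes tested). The groups did not overlap in TPM for any of the 6, and all 6 changed at least 2-fold, Bnip3l no longer so under median-of-ratios scaling (log2 fold change -0.62) or without SOD1-K123R replicate 4 (-0.95). In bulk RNA, fewer cells of a type and less RNA per cell cannot be told apart. These counts have to be read against a table in which nearly every gene differed: 95.7% of genes tested passed, 44.6% higher and 51.1% lower, 26% and 35.8% passed and were at least 2-fold higher and lower, and 91.4% had groups that did not overlap. Passing is therefore no distinction of the members, and their size and order carry the description.

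**Figure D1:**
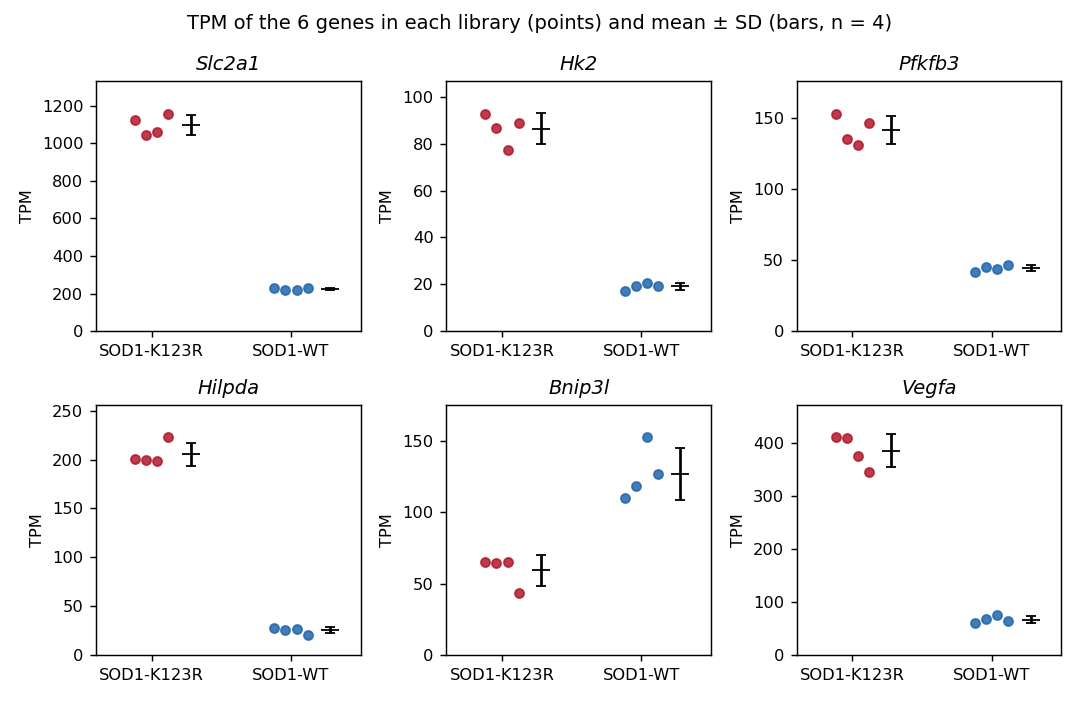
TPM (y axes, linear, from 0) of each of the 6 genes in the 4 SOD1-K123R libraries (red points, left) and the 4 SOD1-WT libraries (blue points, right), with mean ± SD in black. The SOD1-K123R points lie above all SOD1-WT points for Slc2a1, Hk2, Pfkfb3, Hilpda and Vegfa and below them for Bnip3l.

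Slc2a1 (ENSRNOG00000007284) had 1122, 1045, 1061 and 1157 TPM in SOD1-K123R replicates 1 to 4, against 229, 219, 221 and 232 TPM in SOD1-WT replicates 1 to 4. Every SOD1-K123R library was far above every SOD1-WT library, and the spread within a group was small. The log2 fold change was 2.28 (limma SE 0.07, adjusted p = 1.10e-10), and the ratio of the mean TPM was 4.87. It was the most abundant member in both groups, with the 40th highest mean of the table's genes in SOD1-K123R and the 118th in SOD1-WT. Its paralogue Slc2a3, the glucose transporter GLUT3, had 57.3 ± 2.11 TPM in SOD1-K123R and 32.2 ± 1.10 TPM in SOD1-WT (SD, n = 4 each) and rose too (log2 fold change 0.81, SE 0.08, limma adjusted p = 5.30e-07). The TPM of Slc2a1 over those of Slc2a3 was 18.0 to 19.8 in the SOD1-K123R libraries and 6.62 to 7.43 in the SOD1-WT libraries. Slc2a13, a myo-inositol transporter of the same family, was low throughout and fell (log2 fold change -0.94; 0.620 TPM on average in SOD1-K123R and 2.12 TPM in SOD1-WT).

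Hk2 (ENSRNOG00000006116) had 92.8, 86.5, 77.5 and 89.1 TPM in SOD1-K123R replicates 1 to 4, against 17.2, 19.2, 20.6 and 19.5 TPM in SOD1-WT replicates 1 to 4. The lowest SOD1-K123R value, that of replicate 3, was still well above the highest SOD1-WT value. The log2 fold change was 2.12 (SE 0.09, limma adjusted p = 9.38e-10) and the ratio of the means 4.53. Hk2 was the least abundant member in SOD1-WT, and Bnip3l was in SOD1-K123R. Hk3, the other hexokinase tested, had 1.70 ± 0.457 TPM in SOD1-K123R and 2.26 ± 0.516 TPM in SOD1-WT (SD, n = 4 each) and did not pass (log2 fold change -0.27, SE 0.16, limma adjusted p = 0.120; it passed without SOD1-WT replicate 4, at -0.39 and adjusted p = 0.0311).

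Pfkfb3 (ENSRNOG00000018911) had 153, 135, 131 and 146 TPM in SOD1-K123R replicates 1 to 4, against 41.8, 44.98, 43.6 and 46.7 TPM in SOD1-WT replicates 1 to 4. The groups were again fully apart, and the log2 fold change of 1.65 (SE 0.08, limma adjusted p = 2.51e-09) was the smallest of the rises. Pfkfb4, a testis-rich isoenzyme that is also a HIF target, rose by 0.77 (SE 0.13, limma adjusted p = 7.86e-05), with 15.4 ± 2.71 TPM in SOD1-K123R and 8.54 ± 0.484 TPM in SOD1-WT (SD, n = 4 each). Tigar, a phosphatase that removes the product of PFKFB enzymes, went the other way, with 3.15 ± 0.659 TPM in SOD1-K123R and 11.4 ± 0.986 TPM in SOD1-WT. The TPM of Pfkfb3 over those of Tigar was 39.6 to 60.3 in the SOD1-K123R libraries and 3.28 to 4.201 in the SOD1-WT libraries. The ratios between genes within a library given for Slc2a1, Pfkfb3, Hilpda, Vegfa and Bnip3l were chosen after the values were seen and were not tested.

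Hilpda (ENSRNOG00000070930) rose most of the 6. It had 200.2, 199, 198 and 223 TPM in SOD1-K123R replicates 1 to 4, against 27.6, 26.0, 26.1 and 20.7 TPM in SOD1-WT replicates 1 to 4. Replicate 4 was the highest library in SOD1-K123R and the lowest in SOD1-WT, and the groups were still far apart. The log2 fold change was 2.99 (SE 0.10, limma adjusted p = 1.35e-10) and the ratio of the means 8.18. Of the 20 lipid droplet genes listed, 2 others were tested and both rose by less: G0s2, another inhibitor of ATGL, by a log2 fold change of 1.07 (SE 0.20) and Plin2, a coat protein of lipid droplets, by 0.82 (SE 0.09). Hilpda amounted to 0.564 to 0.668 of the TPM of Plin2 in the SOD1-K123R libraries and 0.126 to 0.139 in the SOD1-WT libraries.

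Bnip3l (ENSRNOG00000009820) had 64.9, 64.4, 64.8 and 43.1 TPM in SOD1-K123R replicates 1 to 4, against 110.2, 119, 152 and 127 TPM in SOD1-WT replicates 1 to 4. SOD1-K123R replicates 1 to 3 were nearly equal and replicate 4 lay lower, and all 4 were below the lowest SOD1-WT library. The log2 fold change was -1.09 (SE 0.14, limma adjusted p = 8.39e-06), and SOD1-WT had 2.14 times the mean TPM of SOD1-K123R. Scaling the libraries by the median of ratios, which moved the typical gene by 0.42, left a log2 fold change of -0.62 (limma adjusted p = 0.000782). Of 18 mitophagy receptors and adaptors listed, the other 3 tested, Sqstm1 (p62), Nbr1 and Gabarapl1, rose, by log2 fold changes of 0.90, 0.91 and 1.08. In TPM, Bnip3l amounted to 0.0483 to 0.0826 of Sqstm1 in the SOD1-K123R libraries and 0.223 to 0.355 in the SOD1-WT libraries. Bnip3, the closest paralogue of Bnip3l and a HIF target itself, was not analysed here.

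Vegfa (ENSRNOG00000019598) had 411, 410.3, 376 and 346 TPM in SOD1-K123R replicates 1 to 4, against 60.4, 68.0, 74.8 and 64.1 TPM in SOD1-WT replicates 1 to 4. The lowest SOD1-K123R library was above 4 times the highest SOD1-WT library. The log2 fold change was 2.51 (SE 0.09, limma adjusted p = 2.92e-10) and the ratio of the means 5.77. Vegfa was the second most abundant member in SOD1-K123R and the third in SOD1-WT, where Bnip3l stood above it.

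In order of mean TPM the members ran Slc2a1, Vegfa, Hilpda, Pfkfb3, Hk2 and Bnip3l in SOD1-K123R, and Slc2a1, Bnip3l, Vegfa, Pfkfb3, Hilpda and Hk2 in SOD1-WT. Neighbours did not overlap in TPM in either order. In SOD1-WT, Hilpda and Hk2 were the closest neighbours, at 25.1 ± 3.05 and 19.1 ± 1.41 TPM (SD, n = 4 each), with a highest Hk2 library of 20.6 TPM and a lowest Hilpda library of 20.7 TPM. Bnip3l was the last in SOD1-K123R and the second in SOD1-WT, and Hilpda stood above Pfkfb3 in SOD1-K123R and below it in SOD1-WT.

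Set among all genes tested, whose log2 fold changes formed 1 mode of rises and 1 of falls, the 5 rises lay in the upper part and Bnip3l near the middle of the falls. Of all genes tested, 0.900% had a higher log2 fold change than Hilpda, 2.08% than Vegfa, 2.63% than Slc2a1, 3.18% than Hk2 and 7.09% than Pfkfb3. For Bnip3l, 31.8% of genes tested had a lower log2 fold change. Genes with a log2 fold change within 0.5 of 0 were few (8.44% of those tested), and the labels do not say how the table's rows were chosen. The adjusted p and the shares of genes tested hold for these rows only, and may differ over a full set of genes.

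**Figure D2:**
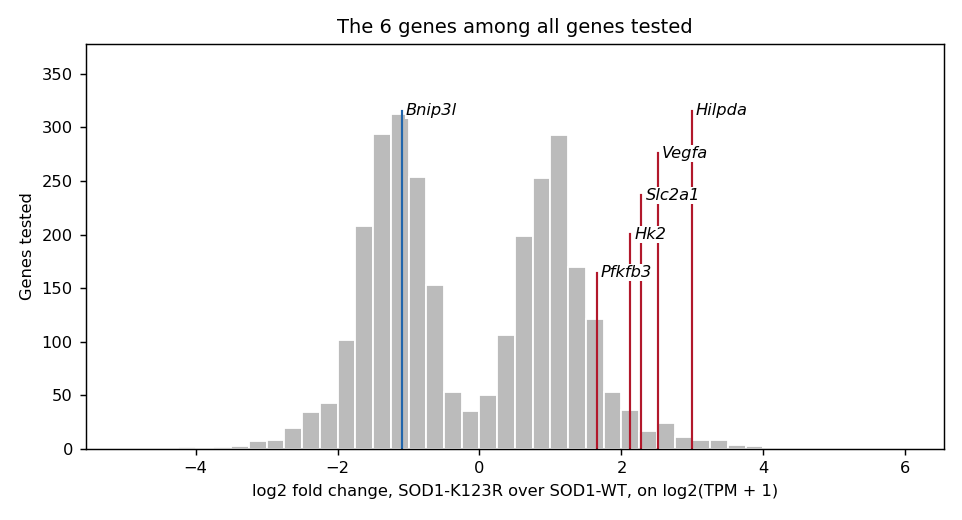
Number of genes tested (y axis) by log2 fold change of SOD1-K123R over SOD1-WT on the log2(TPM + 1) scale (x axis, bins of 0.25), with lines at the 6 genes. Hilpda (2.99) to Pfkfb3 (1.65) stand on the upper side of the mode of rises, and Bnip3l (-1.09) stands at the mode of falls.

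Whether the members changed by different amounts was tested with the log2 ratio of each pair within a library, on TPM + 1, a quantity that library scaling hardly touches. Of the 15 pairs, 13 differed between the groups (exact permutation test over 70 arrangements of the libraries, two-sided, Benjamini-Hochberg over the 15 pairs, adjusted p = 0.0330 for each). The smallest p that this test allows before adjustment is 0.0286, and all 13 had it. How often pairs of other genes tested would differ was not counted. As 95.7% of single genes passed in limma, the number of pairs is no distinction of the members. Hilpda rose more than each of the other 4 that rose, by a log2 difference of 0.48 over Vegfa (SE 0.14), 0.71 over Slc2a1 (SE 0.10), 0.87 over Hk2 (SE 0.13) and 1.34 over Pfkfb3 (SE 0.13). Pfkfb3 rose less than Vegfa, Slc2a1 and Hk2, by 0.86, 0.63 and 0.47. The fall of Bnip3l set it apart from each of the others by 2.75 to 4.08. Slc2a1 was not shown to differ from Hk2 (0.16, SE 0.08) or from Vegfa (-0.23, SE 0.12), with an exact permutation test's adjusted p = 0.114 for each. The difference between Hk2 and Vegfa (-0.39, SE 0.08) lost its call without any 1 of the 4 SOD1-WT libraries, and that between Hilpda and Vegfa without any 1 of the 4 SOD1-K123R libraries (adjusted p = 0.0612 to 0.0659 in both cases), while that between Slc2a1 and Hk2 gained it without SOD1-WT replicate 1 (0.21, adjusted p = 0.0330).

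**Figure D3:**
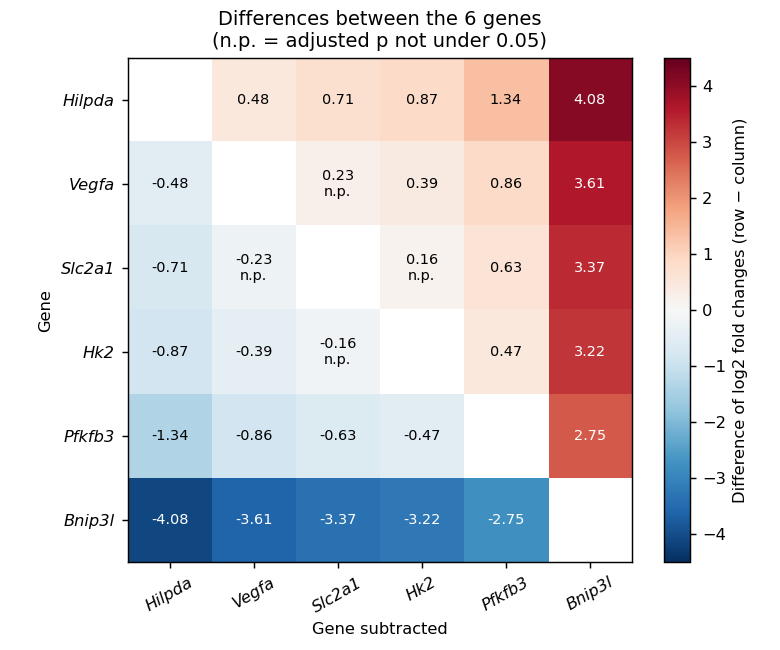
Difference of the log2 fold changes (SOD1-K123R over SOD1-WT, on log2(TPM + 1)) of the gene in the row minus the gene in the column, with red for positive and blue for negative differences and n.p. for pairs that did not pass. The row of Hilpda is positive throughout, that of Bnip3l is negative throughout, and the n.p. pairs are Slc2a1 with Hk2 and Slc2a1 with Vegfa.

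The regulators of the pathway that could be measured were few. Of 16 HIF subunits, hydroxylases and partners listed, 4 were in the table and tested, and Hif1a and the prolyl hydroxylases were not analysed here. Vhl, which targets the HIF alpha subunits for destruction, had 65.3, 61.3, 65.3 and 64.8 TPM in SOD1-K123R replicates 1 to 4, against 20.8, 19.4, 20.3 and 20.8 TPM in SOD1-WT replicates 1 to 4, and rose (log2 fold change 1.61, SE 0.08). Arnt, the partner of the alpha subunits, had 39.4 ± 2.29 TPM in SOD1-K123R and 15.02 ± 1.21 TPM in SOD1-WT and rose (1.34, SE 0.09). Epas1, which encodes HIF-2 alpha, had 28.7 ± 2.88 TPM in SOD1-K123R and 13.2 ± 1.71 TPM in SOD1-WT and rose (1.06, SE 0.11), while Arnt2, a paralogue of Arnt, had 3.38 ± 0.192 TPM in SOD1-K123R and 7.75 ± 0.729 TPM in SOD1-WT and fell (-0.998, SE 0.11; SD, n = 4 each). Their limma adjusted p ranged from 2.28e-09 for Vhl to 2.40e-06 for Arnt2. HIF alpha is controlled mainly as a protein, which RNA does not measure.

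Of 56 HIF target genes listed, 25 were in the table and 24 were tested; 16 rose and 8 fell (66.7% and 33.3%, beside 44.6% and 51.1% of all genes tested), with a median log2 fold change of 1.22, beside -0.49 over all genes tested. Without the 6 members, 11 rose and 7 fell, with a median of 0.79. Those that rose included Bhlhe40 (3.32) and Bhlhe41 (3.77), transcriptional repressors of the circadian clock, Hmox1 (2.72), which degrades heme, and Ddit4 (2.67), an inhibitor of mTORC1. Ddit4 had 116 to 125 TPM in the SOD1-K123R libraries and 15.9 to 21.0 TPM in the SOD1-WT libraries. Among those that fell beside Bnip3l were Edn1 (-2.07), the vasoconstrictor endothelin 1, Slc16a3 (-1.65), which exports lactate, and Lox (-1.56) and Plod2 (-1.10), which crosslink and hydroxylate collagen. Pdk1, a kinase that keeps pyruvate out of mitochondria, also fell (-0.96). The smallest rise, that of Ier3 (0.25), was reversed by quantile normalization (-0.32) and lost its call without SOD1-K123R replicate 2 or 4 or SOD1-WT replicate 3 (0.19 to 0.23).

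**Figure D4:**
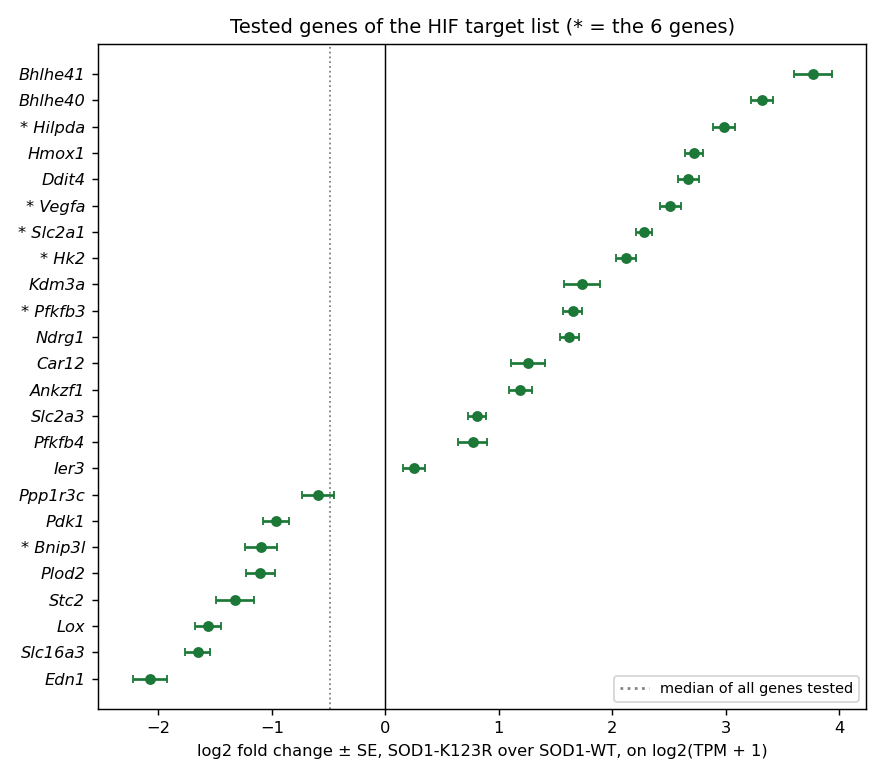
Log2 fold change ± SE of SOD1-K123R over SOD1-WT on the log2(TPM + 1) scale for the 24 tested HIF target genes, in descending order, with asterisks at the 6 members and a dotted line at the median of all genes tested (-0.49). Slc2a1, Hk2, Pfkfb3, Hilpda and Vegfa are among the 10 highest, and Bnip3l is among the 8 genes that fell; the sign of Ier3, the lowest of the rises, turned under quantile normalization.

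The annotation held by the table was read in the same way. In the KEGG HIF-1 signaling pathway 18 genes were tested, of which 9 rose, 8 fell and 1 did not pass (median log2 fold change 0.31). Without the 4 members in it, 5 of 14 rose and 8 fell (median -0.72). Mtor, the kinase of the growth pathway that promotes HIF-1 alpha synthesis, fell (-1.70), as did Il6, an inflammatory cytokine (-2.94). Of 39 tested genes with a GO term on the response to hypoxia, 26 rose and 13 fell (median 1.00). Without the 3 members in it, 23 of 36 rose and 13 fell (median 0.96). Birc2, an inhibitor of apoptosis, rose (2.44), and Bmp2, a ligand of BMP receptors, fell (-3.56).

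Glucose handling was measured in few genes beyond the members. Of 29 genes listed for glucose entry and glycolysis, 8 were tested: 5 rose, 2 fell (Tigar and the muscle enolase Eno3, -1.07) and Hk3 did not pass. The 5 that rose were Slc2a1, Hk2, Pfkfb3, Slc2a3 and Pfkfb4, which act in transport, phosphorylation and the setting of phosphofructokinase activity. Under GO terms on the glycolytic process 5 of 11 rose and 5 fell (median log2 fold change -0.27), and among them the acetyltransferase Kat2b fell (-1.43). Without the members Hk2 and Pfkfb3, 3 of 9 rose and 5 fell (median -1.07). All 4 tested genes of 16 listed as other regulators of glucose uptake rose. Txnip, which brings about the internalisation of GLUT1, had 120, 85.7, 118 and 79.9 TPM in SOD1-K123R replicates 1 to 4, against 11.0, 9.35, 12.6 and 8.59 TPM in SOD1-WT replicates 1 to 4 (log2 fold change 3.15, SE 0.15, limma adjusted p = 2.33e-09). Its paralogue Arrdc4 (0.83), the stress transcription factor Atf4 (0.70) and the stress sensor Sesn2 (1.31) also rose.

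Vegfa was the largest of 4 rises among angiogenic ligands. Of 18 listed, 10 were tested; 4 rose and 6 fell (median log2 fold change -0.69). Pgf, a VEGF-family ligand of the receptor FLT1, had 18.4 ± 1.36 TPM in SOD1-K123R and 3.71 ± 0.727 TPM in SOD1-WT and rose (2.06, SE 0.13). The TPM ratio of Vegfa to Pgf overlapped between the groups (18.6 to 24.1 in SOD1-K123R and 14.4 to 24.5 in SOD1-WT). The platelet-derived growth factors Pdgfa (1.14) and Pdgfb (0.85) rose too. Cxcl12, a chemokine that recruits progenitor cells, had 2.37 ± 0.459 TPM in SOD1-K123R and 29.6 ± 3.51 TPM in SOD1-WT and fell (-3.18, SE 0.13), and Edn1 (-2.07), Angpt1, a ligand of the endothelial receptor TEK (-1.79), Fgf1 (-1.16), Hgf (-0.96) and Apln (-0.43) fell as well. The call for Apln ended under median-of-ratios scaling (-0.17) and quantile normalization (-0.18).

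Of 8 receptors of VEGF and angiopoietins listed, Nrp1, a co-receptor of VEGFA, was the 1 tested, and it fell (1.14 ± 0.221 TPM in SOD1-K123R and 4.77 ± 0.466 TPM in SOD1-WT; log2 fold change -1.44, SE 0.12). Among inhibitors of angiogenesis 5 of 6 tested fell and 1 rose, of 12 listed (median -1.49). Thbs1, thrombospondin 1, had 1418, 1361, 1098 and 1502 TPM in SOD1-K123R replicates 1 to 4, against 3487, 3732, 3831 and 4818 TPM in SOD1-WT replicates 1 to 4 (-1.56, SE 0.12). Vegfa amounted to 0.230 to 0.342 of the TPM of Thbs1 in the SOD1-K123R libraries and 0.0133 to 0.0195 in the SOD1-WT libraries. Ism1, which encodes the secreted protein isthmin, had 0.532 ± 0.162 TPM in SOD1-K123R and 25.4 ± 8.82 TPM in SOD1-WT (-4.06, SE 0.19). The thrombospondin Thbs2 (-1.43) and Adamts1, a protease that binds VEGFA (-1.76), fell as well, and Col18a1, the precursor of endostatin, rose (0.56, SE 0.09). Timp3, a metalloproteinase inhibitor that blocks VEGF receptor 2, fell (-0.67), a call that ended under median-of-ratios scaling (-0.20). Over the 74 tested genes with a GO term on angiogenesis, 36 rose, 36 fell and 2 did not pass (median 0.15). Hk2 is among these genes, and Vegfa carries no such term in the annotation used. Epha2, an ephrin receptor, rose (2.11). Grem1, an antagonist of BMP ligands that binds VEGF receptor 2, and Cyp1b1, a cytochrome of steroid metabolism, fell (-2.55 and -2.82).

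**Figure D5:**
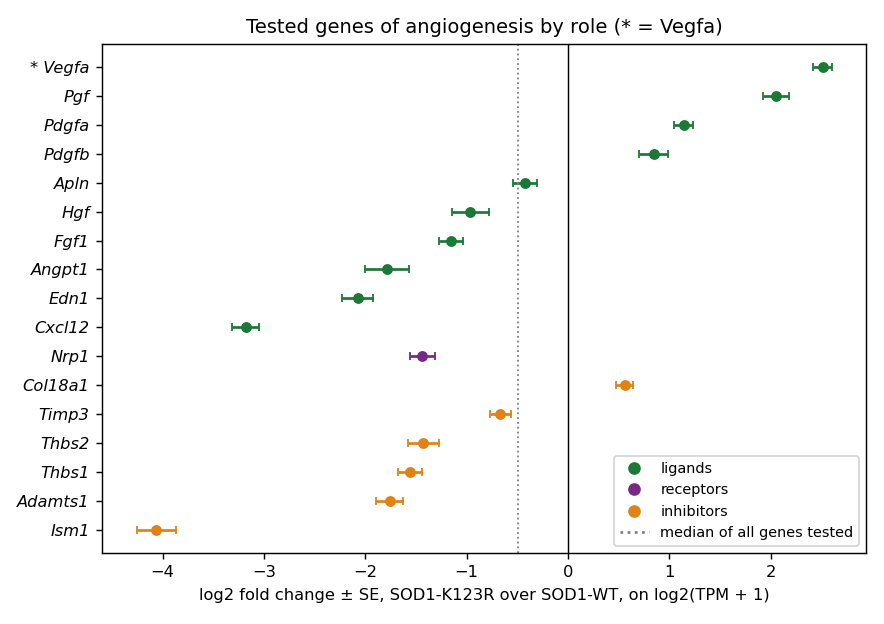
Log2 fold change ± SE of SOD1-K123R over SOD1-WT on the log2(TPM + 1) scale for tested ligands (green), receptors (purple) and inhibitors (orange) of angiogenesis, each in descending order, with a dotted line at the median of all genes tested (-0.49). Vegfa (2.51) and Pgf (2.06) are the highest ligands and Cxcl12 (-3.18) the lowest, and Col18a1 is the 1 inhibitor that rose.

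The cells' own markers and those of cells that respond to VEGFA were checked. Of 16 nucleus pulposus markers, 8 were in the table, with a summed level of 48.01 to 70.6 TPM in SOD1-K123R and 51.0 to 65.2 TPM in SOD1-WT. The highest means were those of Cd24 (31.2 TPM in SOD1-K123R and 10.1 TPM in SOD1-WT) and Ncam1 (17.3 and 35.2 TPM). Of the 7 tested, 4 rose (Sox9, Cd24, Nog and Car12) and 3 fell (Cdh2, Ncam1 and Acan). In the same order of groups, Sox9 (3.185 and 0.400 TPM), Nog (2.985 and 0.680 TPM), Car12 (3.27 and 0.778 TPM) and Acan (0.645 and 1.545 TPM) were low. Each of these averaged under 1 TPM in 1 group and passed the filter only through the other. Their directions are therefore tied to how they entered the test. Col2a1 was not tested, at 0.02 to 0.08 TPM in the SOD1-K123R libraries and listed at 0 in all SOD1-WT libraries. Sox9, Acan and Col2a1 were thus low in both groups and did not bear out the label of nucleus pulposus cells. The keratins and brachyury were not analysed here, so that label could be checked only in part. Of 12 endothelial markers, 2 were in the table, Pecam1 and Tie1, together at 0.470 to 0.670 TPM in SOD1-K123R and 0.0800 to 0.390 TPM in SOD1-WT. Of 9 macrophage and leukocyte markers, 2 were in the table, Cd68 and Lyz2, together at 23.4 to 30.9 TPM in SOD1-K123R and 5.44 to 8.04 TPM in SOD1-WT. Nearly all of this was Cd68, at means of 26.0 TPM in SOD1-K123R and 6.89 TPM in SOD1-WT. Lyz2 was low, at 0.59 to 1.08 TPM in the SOD1-K123R libraries and listed at 0 in 3 SOD1-WT libraries. Cd68, the 1 tested, rose (1.77). Macrophages also express Slc2a1, Hk2 and Vegfa, and the part of such cells in the members' rises was not tested. Of 6 annulus and tendon markers, the 2 tested, Scx and Thbs4, fell (-1.38 and -0.63), the call for Thbs4 ending under median-of-ratios scaling (-0.18). Of 6 erythroid markers listed, none was found in the table.

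The table's columns summed to 235371 to 243393 TPM in SOD1-K123R and 187515 to 198656 TPM in SOD1-WT, so its rows are part of a library and differ in total between the groups; depth is not recoverable from TPM.

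The genes with the profiles most like those of the members over the 8 libraries were found by the root mean square distance between log2(TPM + 1) profiles, each centred on its own mean, among 1772 genes with a usable symbol and a mean of at least 5 TPM. Profiles of this kind are dominated by the difference between the groups. The nearest to Slc2a1 were Prkcd (distance 0.0496), Tap2 (0.0878) and Efna1 (0.0913), which encode a protein kinase C, a peptide transporter of antigen presentation and an ephrin ligand. The nearest to Hk2 were Plekha2 (0.0528), Rnf169 (0.0756) and Csnk1g1 (0.0832), and to Pfkfb3 they were Dnmbp (0.0521), Ccn2 (0.0599) and the clock repressor Cry2 (0.0661). Hilpda had the most distant neighbours, Chka, a choline kinase (0.132), Mxd1, an antagonist of MYC (0.180), and Ccng2, a cyclin of growth arrest (0.183). The nearest to Vegfa were Birc2 (0.0498), Ypel2 (0.0859) and Nhsl3 (0.106). The nearest to Bnip3l were genes of the cell cycle, splicing and peptide breakdown, Fbxo5 (0.0926), Srsf1 (0.113) and Ide (0.117). No member was among the 3 nearest genes of another.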

How the data were processed

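RNA-seq was made from 8 libraries of rat nucleus pulposus cells, 4 SOD1-K123R and 4 SOD1-WT, grouped by title. Per the labels, RNA was isolated with TRIzol and sequenced as paired ends on an Illumina NovaSeq. The authors deposited a gene-level table of TPM, which its name credits to RSEM; the submitters' processing notes name DESeq2, with no role given. The aligner and genome build were not given in the sources used here. Since TPM hold no read numbers, depth is unknown and intervals for counting error are absent.

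Where the mean over libraries reached 1 TPM, a gene was transformed to log2(TPM + 1), a scale that understates changes of low genes. The difference (SOD1-K123R minus SOD1-WT) was tested in limma 3.58.1 (eBayes with a trend) in R 4.3.3, two-sided, with Benjamini-Hochberg adjustment over 2890 genes. SE are limma's moderated errors; for pairs of members they come from the spread of the within-library log2 ratios. The fit and the permutation test were tested on simulated data.

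The members and the gene lists were chosen with earlier results of these data known. Named genes are the members, their tested family members and HIF regulators, up to 4 genes per list with the smallest adjusted p, and the 3 nearest profiles of each member; others were chosen after their values were seen, and 1 gene that the rule names is not reported here. List members were matched by symbol or a listed alias, and annotation terms by their text (the hypoxia, angiogenesis and glycolytic terms include those on regulation). Alternatives were a pseudocount of 0.1, no filter or a mean of at least 5 TPM, median-of-ratios scaling, quantile normalization, no trend, a replicate block and leaving out each library. Same-numbered libraries did not deviate together and were not treated as pairs.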

Additional observations from a re-analysis of the deposited data

Results flagged for a closer look

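Among 90 genes looked at in each group of 4 libraries (180 groups), 10 groups (5.56%) had 1 library far from the other 3 by Dixon's criterion, which flags about 1 in 20 groups by chance. Of these, 2 concern the members, both in SOD1-K123R replicate 4: Hilpda read 223 TPM there and 198 to 200.2 TPM in replicates 1 to 3, and Bnip3l read 43.1 TPM there and 64.4 to 64.9 TPM in replicates 1 to 3. Without that library the log2 fold changes were 2.95 for Hilpda and -0.95 for Bnip3l, and both passed.

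Other libraries of SOD1-K123R that stood apart were replicate 2 for Kat2b (6.87 TPM, the rest 4.35 to 4.76) and Vhl (61.3 TPM, the rest 64.8 to 65.3), and replicate 3 for Mtor (4.07 TPM, the rest 4.56 to 4.63). In SOD1-WT, replicate 4 stood apart for Pdgfa (53.8 TPM, the rest 43.9 to 45.2), Plin2 (164 TPM, the rest 199 to 204) and Thbs2 (1100 TPM, the rest 646 to 702), and replicate 3 for Ndrg1 (30.2 TPM, the rest 26.7 to 27.2) and Pfkfb4 (9.26 TPM, the rest 8.2 to 8.37). No cause was tested for any of these.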

How the results depend on the processing

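Each member kept its direction and its call under all 15 alternatives. Nearly all other named genes also kept theirs wherever they were tested, so this is no distinction of the members. Over them 15 to 17 listed HIF targets rose and 7 to 8 fell. The members' log2 fold changes ranged over 1.89 to 2.76 for Slc2a1, 2.06 to 2.59 for Hk2, 1.53 to 2.13 for Pfkfb3, 2.90 to 3.46 for Hilpda, -1.18 to -0.62 for Bnip3l and 2.23 to 2.99 for Vegfa, the highest adjusted p being 0.000782. Median-of-ratios scaling moved the typical gene by 0.42 and quantile normalization by 0.20. Leaving out a library gave -0.46 to -0.35 for Hk2 against Vegfa, 0.38 to 0.57 for Hilpda against Vegfa and 0.11 to 0.21 for Slc2a1 against Hk2, the 3 pairs whose call depended on a library. Ier3 was reversed by quantile normalization (-0.32).

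With a mean of at least 5 TPM fewer genes were tested, and genes that fell numbered 897, against 1476 at a mean of 1 TPM. At that limit 5, against 8, genes of the KEGG HIF-1 pathway fell, 3, against 6, angiogenic ligands fell, 0, against 1, VEGF receptor fell, and 1, against 4, nucleus pulposus marker rose. With no filter, 1 VEGF or angiopoietin receptor, 2 endothelial markers and 2 leukocyte markers rose and 1 regulator of glucose uptake fell, against 0, 0, 1 and 0. Under median-of-ratios scaling 1 annulus and tendon marker fell, against 2.

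With a replicate block, 1282 genes were higher and 1461 lower, and Bnip3l kept a log2 fold change of -1.09. Same-numbered libraries had correlations of their deviations of -0.35, 0.02, -0.20 and 0.05. No SOD1-K123R library correlated best with the SOD1-WT library of its own number. Of the SOD1-WT libraries, only replicate 4 correlated best with the SOD1-K123R library of its own number. Sign flips of 4 paired log2 ratios cannot give a p under 0.125, so that test could not bear on the pairs of members.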
